A study of Homo sapiens with 6 samples.

Results

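The SLC25 genes encode the mitochondrial carriers, the family of membrane proteins that move nucleotides, phosphate, keto acids, amino acids, cofactors and metal ions across the inner mitochondrial membrane. The members described here are all protein-coding genes of the table whose symbol is SLC25A followed by a number, 48 genes on 50 of its 57819 rows. They were compared between cells depleted of sin-lncRNA and control cells and grouped by what each carrier transports. SLC25A6 is listed on 2 rows, its identical pseudoautosomal copies on X and Y, and SLC25A10 has a further row with no reads. The antisense gene SLC25A21-AS1 was left out.

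The cells were IMR90 ER:Ras, human lung fibroblasts with a Ras oncogene joined to the hormone-binding part of the estrogen receptor. All 6 cultures received 4-hydroxytamoxifen (4OHT), which switches that fusion on and drives the cells into oncogene-induced senescence, at 200 nM for 3 days. The control group (n = 3 libraries) received a scrambled siRNA, labelled siSCR. The knockdown group (n = 3 libraries) received siRNA that targets sin-lncRNA, a long noncoding RNA. PolyA RNA was sequenced to ask what loss of this RNA changes in cells treated with 4OHT. Whether the cells were senescent by day 3 was not examined here. The descriptions of all knockdown libraries name 1 siRNA, and the column names add an ending to that name that the labels do not explain. Depletion of sin-lncRNA and any other effect of the siRNA used cannot be told apart, and cells without 4OHT were not analysed here. The labels do not say whether replicates were separate cultures, so p-values measure the spread between these libraries, which may be technical.

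Reads in genes numbered 30271192 to 50913672 in control libraries and 22117324 to 27882280 in knockdown libraries. Levels are given in RPM, a gene's reads scaled to one library size common to all samples. Where a gene has 0 reads, up to 3 are possible by counting error alone, or 0.0596 to 0.134 RPM. sin-lncRNA itself stood at 4.17 ± 0.52 RPM in controls and 0.556 ± 0.076 RPM in knockdowns (SD, n = 3), 13.3% of the control level. The fibroblast markers were abundant in every library, with a summed level of 15520 to 16742 RPM in controls and 11156 to 11563 RPM in knockdowns, and all 8 were called different, 5 lower and 3 higher. Epithelial markers summed to 27.97 to 31.3 RPM in controls and 28.6 to 31.4 RPM in knockdowns, with KRT19 (-1.31 in log2 fold change) and KRT8 (-0.38) called lower, KRT18 (0.35) called higher and EPCAM not called. The 3 endothelial genes listed summed to 1.70 to 1.90 RPM in controls and 2.29 to 2.71 RPM in knockdowns. Of these, VWF (0.42) was called higher, and CDH5 and KDR had too few reads to be tested. PECAM1, also planned, was matched to no row. The 4 leukocyte genes summed to at most 0.314 RPM in any library, and none was tested. CDH5 and CD3E had no reads in 1 of the groups. The part of these shifts in the carrier results was not tested. Because bulk RNA was measured, fewer cells with a carrier's RNA and less of that RNA per cell cannot be told apart.

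Carriers share a fold of 6 membrane-spanning helices, are made in the cytosol and are inserted into the inner membrane with the help of the TIM22 complex. The ADP/ATP carriers export the ATP made by oxidative phosphorylation, the phosphate carrier brings in the phosphate needed to make it, and the aspartate/glutamate and oxoglutarate carriers together form the malate-aspartate shuttle, which passes reducing equivalents from cytosolic NADH to the matrix. The citrate carrier supplies acetyl units for fatty acid and sterol synthesis, the acylcarnitine carrier feeds fatty acid oxidation, and the mitoferrins supply iron for heme and iron-sulfur clusters. Fibroblasts in Ras-induced senescence are known for raised mitochondrial metabolism.

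Carrier RNA was lower after depletion of sin-lncRNA for many members and higher for few. Of the 48 carriers, 41 averaged at least 10 normalized reads per library and were tested. limma was fitted to all 19048 genes with that many reads, and a gene was called at a Benjamini-Hochberg adjusted p under 0.05. Of the carriers tested, 20 fell (48.8%), 2 rose (4.88%) and 19 were not called, with log2 fold changes of -0.36 to 0.13 among the last. Calls were frequent in the whole table: 41% of all genes tested were called, 23.5% lower and 17.5% higher, and of the 13002 protein-coding genes tested 48.6% were called, 26.4% lower and 22.2% higher. The share of carriers called in either direction, 53.7%, was therefore near that of protein-coding genes, and the carriers differed from these in how the calls divided between lower and higher. No test was made of that difference. The median log2 fold change, knockdown minus control, was -0.21 over the carriers, -0.03 over protein-coding genes and -0.04 over all genes tested, and 34 of the 41 carriers had a negative value. Most of the falls were small, since called carriers had a median absolute value of 0.31 on that scale and 4 of them (SLC25A4, SLC25A5, SLC25A10 and SLC25A22) reached 0.5, a size that 13.9% of all genes reached when called. The control and knockdown values did not overlap for 26 carriers (63.4%), against 57.6% of protein-coding genes and 51.1% of all genes.

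**Figure D1:**
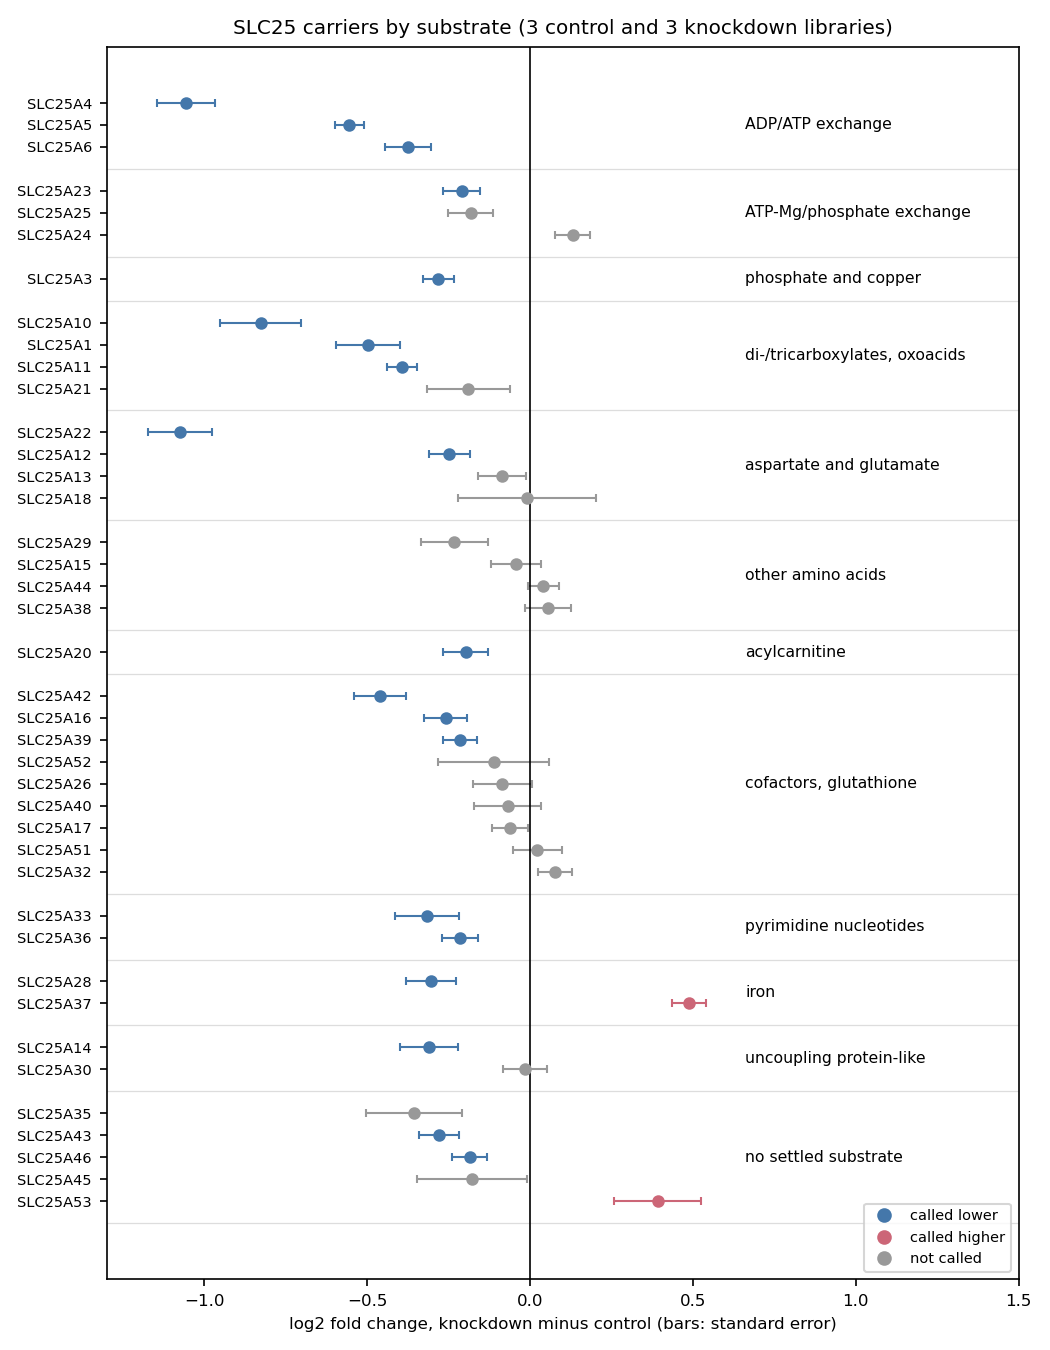
Log2 fold change, knockdown minus control, of 40 of the 41 carriers tested (points, with the standard error of the limma fit as bars), ordered by substrate. The 20 carriers called lower lie left of 0 in most groups, SLC25A22 and SLC25A4 lie beyond -1, and SLC25A37 and SLC25A53 are the 2 called higher.

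The 7 carriers with too few reads were SLC25A2, SLC25A27, SLC25A31, SLC25A34, SLC25A41, SLC25A47 and SLC25A48, with 0 to 16 reads in any library. SLC25A31, the testis-type ADP/ATP carrier, had 1 read in 1 knockdown library and 0 in the other 5. SLC25A48 had no reads at all. SLC25A34, the highest of these by its mean, had 9.15 normalized reads, and SLC25A18, the lowest carrier tested, had 28.6.

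The largest falls were those of SLC25A22, the main mitochondrial glutamate/H+ symporter, and SLC25A4 (ANT1), the ADP/ATP carrier of heart and muscle. SLC25A22 (hg19 chromosome 11, 790475 to 798316, minus strand) stood at 44.96, 34.8 and 44.0 RPM in the controls and at 17.9, 21.0 and 19.6 RPM in the knockdowns. Its lowest control lay well above its highest knockdown, and the log2 fold change was -1.07 (SE 0.10, limma adjusted p = 1.1e-05). SLC25A4 (hg19 chromosome 4, 186064395 to 186071536, plus strand) stood at 17.18, 17.08 and 17.03 RPM in the controls and at 8.65, 8.92 and 7.16 RPM in the knockdowns. The 3 controls were almost equal and all knockdowns lay well below them, and the log2 fold change was -1.06 (SE 0.09, limma adjusted p = 7.7e-06). An exact two-sided permutation test of 3 libraries against 3 can give no p below 0.1, and it gave that value for each carrier called. SLC25A22 overlaps PANO1 on the opposite strand over 10.8% of its exon bases (GENCODE 29), and without a stated strand setting reads from that stretch cannot be assigned with certainty.

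The promoters of the 3 expressed ADP/ATP carriers and of SLC25A22 are shown because all 3 of the former fell and the latter had the largest single fall. Each is the 250 bases before the RefSeq gene start (GRCh38.p14), read 5′ to 3′ on the gene's strand, with capitals marking the CCAAT box and the GC box GGGCGG on either strand. The windows are chr4:185143016-185143265 (plus strand) for SLC25A4, chrX:119468194-119468443 (plus strand) for SLC25A5, chrX:1392114-1392363 (minus strand) for SLC25A6 and chr11:798282-798531 (minus strand) for SLC25A22, for which the most upstream of 4 listed starts was taken.
SLC25A4: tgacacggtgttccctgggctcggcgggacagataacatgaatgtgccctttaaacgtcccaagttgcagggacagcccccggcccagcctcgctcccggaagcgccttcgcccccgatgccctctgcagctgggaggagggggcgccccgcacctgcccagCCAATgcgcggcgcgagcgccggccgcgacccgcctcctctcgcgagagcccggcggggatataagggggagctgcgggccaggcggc
SLC25A5: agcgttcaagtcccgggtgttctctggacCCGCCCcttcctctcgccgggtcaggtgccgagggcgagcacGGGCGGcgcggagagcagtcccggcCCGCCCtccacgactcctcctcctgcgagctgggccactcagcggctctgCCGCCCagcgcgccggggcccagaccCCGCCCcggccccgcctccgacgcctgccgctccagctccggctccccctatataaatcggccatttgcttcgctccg
SLC25A6: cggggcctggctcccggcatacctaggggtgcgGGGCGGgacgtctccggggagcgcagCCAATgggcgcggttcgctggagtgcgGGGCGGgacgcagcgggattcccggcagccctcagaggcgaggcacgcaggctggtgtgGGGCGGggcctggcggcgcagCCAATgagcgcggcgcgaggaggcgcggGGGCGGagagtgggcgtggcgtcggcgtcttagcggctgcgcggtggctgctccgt
SLC25A22: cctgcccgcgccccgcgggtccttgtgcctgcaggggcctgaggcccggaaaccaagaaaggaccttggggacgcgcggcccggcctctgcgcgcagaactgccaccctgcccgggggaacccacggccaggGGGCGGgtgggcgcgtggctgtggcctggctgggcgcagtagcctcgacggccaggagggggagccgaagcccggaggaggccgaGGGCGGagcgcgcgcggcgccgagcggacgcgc
These genes have different boxes in this window. SLC25A4 has 1 CCAAT box and 0 GC boxes, SLC25A5 has 5 GC boxes and 0 CCAAT boxes, SLC25A6 has 2 CCAAT boxes and 4 GC boxes, and SLC25A22 has 2 GC boxes in the window shown. All 4 are rich in G and C, at 71.6%, 73.6%, 76.8% and 78% in the order shown.

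A RefSeq promoter was matched by symbol for 40 of the 48 carriers, 19 of them among the 20 called lower. A CCAAT box was found before at least 1 start of 20 of the 40 and of 10 of the 19, and in 32.0% of all 35116 promoters. A GC box was found for 30 of the 40 and 15 of the 19, against 42.6% of all promoters. The E-box CACGTG was found for 8 of the 40 and 3 of the 19, against 6.34%. All motifs were searched on both strands of these 250 bases, and none of the 3 contains another. A carrier with several listed starts has more chances of a match than a single promoter. These motifs were chosen after the expression results were known, and a match is a stretch of letters only.

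ADP/ATP exchange was the one group of 3 tested members in which all 3 fell, with a median log2 fold change of -0.55. Of protein-coding genes tested, 26.4% were called lower and 22.2% higher, and no substrate group was tested as a set. SLC25A5 (ANT2, hg19 chromosome X, 118602363 to 118605282, plus strand), the isoform of growing cells, stood at 150.3, 160.1 and 160.8 RPM in controls and 107.4, 105.1 and 108.1 RPM in knockdowns. Its log2 fold change was -0.55 (SE 0.04, limma adjusted p = 4.4e-06), and no knockdown came within 40 RPM of a control. SLC25A6 (ANT3), the broadly expressed isoform, stood over its 2 rows together at 547.8, 449.7 and 525.8 RPM in controls and 370.2, 405.0 and 394.7 RPM in knockdowns. The groups did not overlap, though control replicate 2 lay nearer to the knockdowns than the other controls did, and the log2 fold change was -0.38 (SE 0.07, limma adjusted p = 0.0012), with -0.37 for the X row alone.

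Per kilobase of the principal transcript (RPKM), SLC25A6 stood at 246 ± 24.97 and SLC25A5 at 123 ± 4.63 in controls, while SLC25A4 stood at 3.85 ± 0.02 (SD, n = 3). In knockdowns the same values were 189 ± 8.67, 83.9 ± 1.25 and 1.86 ± 0.21. SLC25A4 thus made up 1.03% of the ADP/ATP carrier level in controls and 0.676% in knockdowns, with no overlap of the groups. The shares of SLC25A5 (33.1% ± 2.9 and 30.5% ± 1.2) and SLC25A6 (65.8% ± 2.9 and 68.8% ± 1.2) overlapped between the groups. The size of the SLC25A4 share depends on the length used, 4440 bases; SLC25A4 was also the lowest of the 3 in RPM. Reads were also assigned to pseudogenes of these genes. In each library, 9 SLC25A5 pseudogenes together held reads equal to 21.7% to 23.99% of those of SLC25A5, and 6 SLC25A6 pseudogenes 3.71% to 5.43%. Whether these reads came from the parent genes was not tested, so the levels of both parents are uncertain. SLC25A5 further overlaps SLC25A5-AS1 on the opposite strand over 15.1% of its exon bases.

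**Figure D2:**
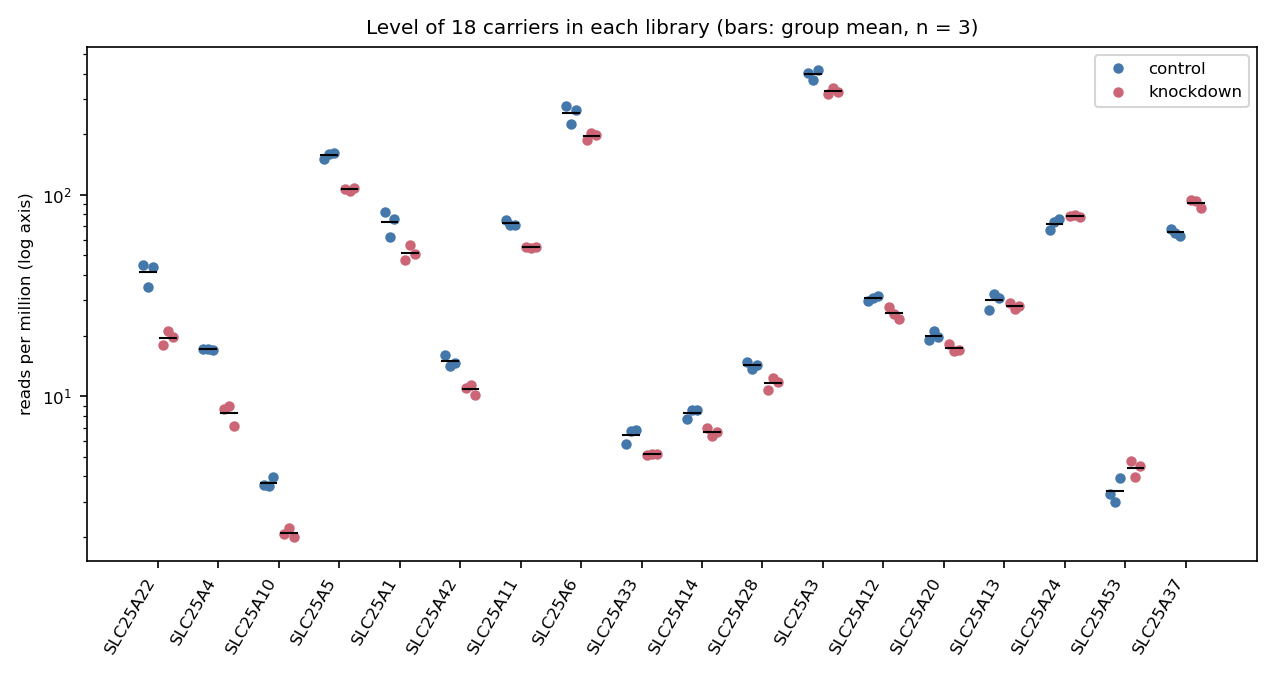
Level of the 18 carriers described by library, in RPM on a log axis; each point is a library and each bar a group mean (n = 3). Control and knockdown points stand apart for SLC25A22, SLC25A4 and SLC25A5, lie close for SLC25A20 and SLC25A12, and are reversed in order for SLC25A37; for SLC25A6 the X row is drawn.

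SLC25A3, the carrier of phosphate and of copper for cytochrome c oxidase, was the carrier with the most reads on a single row. It stood at 401.9, 373.2 and 414.8 RPM in controls and at 316.4, 337.2 and 324.6 RPM in knockdowns. The groups were apart by less than 40 RPM, and SLC25A3 fell by 0.28 on the log2 scale (SE 0.05, limma adjusted p = 0.00086). Its RPKM of 236 ± 12.7 in controls did not differ from that of SLC25A6 beyond their spread, and its knockdown value was 194 ± 6.27. The 2 SLC25A3 pseudogenes held reads equal to 9.29% to 11.4% of its own.

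The ATP-Mg/phosphate carriers, which adjust the size of the matrix adenine nucleotide pool in response to calcium, did not move together. SLC25A23 fell by 0.21 on the log2 scale (limma adjusted p = 0.013), a call lost in 3 of the 19 other fits. It was lost without knockdown replicate 3 (-0.19, adjusted p = 0.051) and with quantile normalization (-0.16, adjusted p = 0.055). The value was -0.09 with the GC and length trend removed (adjusted p = 0.20). SLC25A25 had a log2 fold change of -0.18 (adjusted p = 0.052) and was not called. It was called in 4 of the 19 other fits, with -0.23 without knockdown replicate 3, and stood at -0.11 with the GC and length trend removed (adjusted p = 0.18). SLC25A24, the most abundant of the 3, stood at 66.8, 73.1 and 75.8 RPM in controls and at 78.6, 79.4 and 77.8 RPM in knockdowns. All its knockdown values were above all controls, but the log2 fold change of 0.13 was not called (SE 0.05, adjusted p = 0.071); it was called under each of the 3 other scalings (0.15 to 0.16), but was 0.042 with the GC and length trend removed (adjusted p = 0.48) and 0.079 without control replicate 1 (adjusted p = 0.21). SLC25A24 made up 51.2% ± 2.2 of the summed RPKM of these 3 carriers in controls and 56.8% ± 0.6 in knockdowns (SD, n = 3), with no overlap. The shares were not corrected for transcript GC content, which is 38.7% for SLC25A24, 58.5% for SLC25A23 and 55.4% for SLC25A25.

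Carriers of di- and tricarboxylates, which link the citric acid cycle to the cytosol, fell in 3 of 4 cases. Their median log2 fold change was -0.45, and 26.4% of protein-coding genes tested were called lower. SLC25A1, the citrate carrier (hg19 chromosome 22, 19163095 to 19166343, minus strand), stood at 82.5, 61.7 and 75.5 RPM in controls and at 47.2, 56.6 and 50.97 RPM in knockdowns. The replicates of SLC25A1 varied more than those of most carriers and its groups came within 6 RPM of each other, and the log2 fold change was -0.50 (SE 0.10, limma adjusted p = 0.0021). SLC25A11, the oxoglutarate/malate carrier (hg19 chromosome 17, 4840425 to 4843546, minus strand), stood at 74.6, 70.8 and 70.9 RPM in controls and at 54.95, 54.73 and 54.96 RPM in knockdowns. The values of SLC25A11 were tight in both groups, and it fell by 0.39 on the log2 scale (SE 0.05, limma adjusted p = 6.5e-05). SLC25A11 overlaps RNF167 on the opposite strand over 9.14% of its exon bases, and the 5 SLC25A1 pseudogenes held reads equal to 10.7% to 12.6% of those of SLC25A1.

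SLC25A10, the dicarboxylate carrier, which exchanges malate and succinate for phosphate, stood at 3.61, 3.60 and 3.99 RPM in controls and 2.06, 2.22 and 2.00 RPM in knockdowns. It was the scarcest carrier with a large fall, from 108 to 201 reads in controls to 46 to 56 in knockdowns, and its log2 fold change was -0.83 (SE 0.12, limma adjusted p = 0.00037). In GENCODE 29 a same-strand gene model, the one on the further row without reads, shares 46.6% of the exon bases of SLC25A10, so its level is uncertain. SLC25A21, the oxoadipate carrier, had a log2 fold change of -0.19 and was not called (adjusted p = 0.27).

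The aspartate and glutamate carriers divided between those that fell and those that were not called. SLC25A12 (aralar, also AGC1), the calcium-regulated aspartate/glutamate carrier of muscle and brain, stood at 29.8, 30.6 and 31.6 RPM in controls and at 27.6, 25.7 and 24.2 RPM in knockdowns. The groups were separate and the log2 fold change of SLC25A12 was -0.25 (SE 0.06, limma adjusted p = 0.0091). SLC25A13 (citrin, also AGC2), the second aspartate/glutamate carrier, stood at 26.8, 32.2 and 30.8 RPM in controls and at 29.2, 27.1 and 28.1 RPM in knockdowns. These groups overlapped, and its log2 fold change of -0.09 was not called (SE 0.07, adjusted p = 0.38); it was -0.16 without control replicate 1 (adjusted p = 0.060) and -0.03 without control replicate 2. SLC25A12 and SLC25A13 stood at similar levels per length, 10.3 ± 0.30 and 9.55 ± 0.90 RPKM in controls, and the share of SLC25A12 in the pair, 51.9% ± 2.0 in controls and 49.1% ± 1.4 in knockdowns, overlapped between the groups. The difference between the 2 fold changes was not tested.

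SLC25A18, the other glutamate symporter, was scarce at 0.917 ± 0.101 RPM in controls and 0.909 ± 0.154 RPM in knockdowns and was not called. With SLC25A22 lower by more than 50% and SLC25A18 near its control level, the share of SLC25A22 in the pair per length was 97.3% ± 0.4 in controls and 94.5% ± 0.8 in knockdowns, with no overlap. SLC25A22 thus remained the dominant form of the pair in all libraries. Of the malate-aspartate shuttle, SLC25A11 and SLC25A12 and the enzymes GOT1, GOT2, MDH1 and MDH2 fell, by 0.14 to 0.39 on the log2 scale. SLC25A13 was not called. Among protein-coding genes tested, 26.4% were called lower, and the shuttle was not tested as a set.

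Other amino acid carriers gave no calls. SLC25A29, a carrier of basic amino acids, had a log2 fold change of -0.23 (adjusted p = 0.096), SLC25A15, the ornithine carrier of the urea cycle, -0.04, SLC25A44, the branched-chain amino acid carrier, 0.04, and SLC25A38, the glycine carrier of heme synthesis, 0.05. Their median was -0.00 on that scale. SLC25A44 was the most abundant of them, at 62.5 ± 1.29 RPM in controls and 64.3 ± 1.99 RPM in knockdowns. The SLC25A38 pseudogene held reads equal to 14.9% to 22.2% of those of SLC25A38, so the SLC25A38 level is uncertain. The SLC25A29 value rested on single controls: it was -0.11 without control replicate 1 (adjusted p = 0.32), and -0.32 without control replicate 2, the 1 of 19 other fits that called it.

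**Figure D3:**
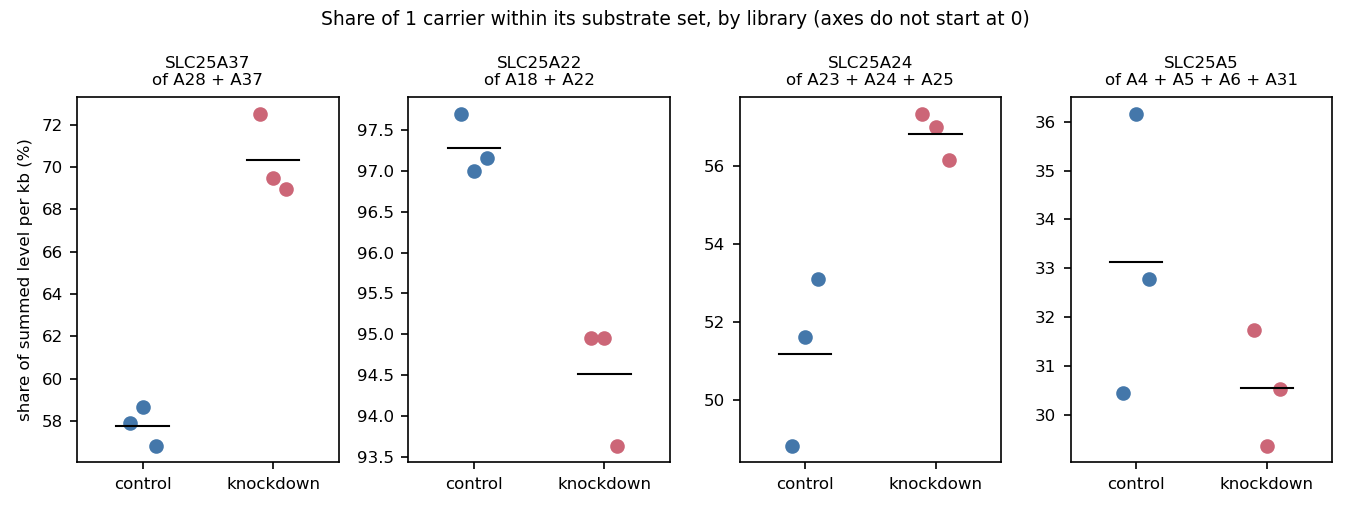
Share of 1 carrier in the summed level per kilobase (RPKM) of the carriers with its substrate, in percent, by library; points are libraries and bars group means (n = 3), and the axes do not start at 0. SLC25A37 and SLC25A24 take larger shares and SLC25A22 a smaller one in every knockdown library than in any control library. The shares of SLC25A5 overlap, and no share is corrected for GC content.

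The iron carriers moved in opposite directions. SLC25A37 (mitoferrin-1, hg19 chromosome 8, 23386318 to 23432976, plus strand), the form known from developing red cells, stood at 67.9, 64.7 and 62.7 RPM in controls and at 93.9, 93.5 and 86.5 RPM in knockdowns. It rose in every knockdown library above every control, and its log2 fold change was 0.49 (SE 0.05, limma adjusted p = 3.5e-05). SLC25A28 (mitoferrin-2), the form of other tissues, stood at 14.9, 13.7 and 14.3 RPM in controls and at 10.7, 12.3 and 11.7 RPM in knockdowns. It fell by 0.30 on the log2 scale (SE 0.08, limma adjusted p = 0.0089), and its groups did not overlap. The call of SLC25A28 was lost with the GC and length trend removed (-0.13, limma adjusted p = 0.13), while that of SLC25A37 was kept (0.50).

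Per length the mitoferrins were closer, since the SLC25A37 transcript used has 4823 bases and that of SLC25A28 has 1451. SLC25A37 stood at 13.5 ± 0.54 RPKM in controls and 18.9 ± 0.87 in knockdowns, and SLC25A28 at 9.86 ± 0.39 and 7.99 ± 0.57 (SD, n = 3). The share of SLC25A37 in the pair was 57.8% ± 0.9 in controls and 70.3% ± 1.9 in knockdowns, with no overlap. In controls SLC25A37 and SLC25A22 did not differ per length beyond their spread (14.8 ± 2.00 RPKM for SLC25A22), whereas in knockdowns SLC25A22 stood at 6.97 ± 0.56 RPKM. Of the iron partners, FECH, which inserts iron into heme, fell by 0.60 on the log2 scale, and ISCU, the scaffold on which iron-sulfur clusters are built, rose by 0.18. NFS1 and ALAS1 were not called.

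SLC25A20, the carnitine/acylcarnitine carrier that brings long-chain fatty acids in for oxidation, stood at 18.9, 21.2 and 19.6 RPM in controls and at 18.2, 16.7 and 17.1 RPM in knockdowns. The nearest values of the groups were less than 1 RPM apart, and SLC25A20 fell by 0.20 on the log2 scale (SE 0.07, limma adjusted p = 0.0399). That call was lost in 12 of the 19 other fits, with adjusted p from 0.0304 to 0.207 over all of them; among these were the fits without control replicate 2 (-0.15), control replicate 3 (-0.21), knockdown replicate 2 (-0.17) and knockdown replicate 3 (-0.19). Its enzyme partners on either side did not change alike: CPT1A, the outer membrane carnitine palmitoyltransferase, fell by 0.55 on the log2 scale and CPT2, its inner membrane counterpart, rose by 0.23.

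Of the 10 carriers of cofactors and glutathione, 3 fell and 7 were not called, with a median of -0.10. That share was near the 26.4% of protein-coding genes tested that were called lower. SLC25A42, the coenzyme A carrier, stood at 16.0, 14.2 and 14.6 RPM in controls and at 10.9, 11.4 and 10.2 RPM in knockdowns. It fell by 0.46 on the log2 scale (SE 0.08, limma adjusted p = 0.00085) with no overlap of the groups. SLC25A16, linked to coenzyme A transport, fell by 0.26 and SLC25A39, the glutathione importer, by 0.21 on that scale, while SLC25A40, the paralogue of SLC25A39, had -0.07 and was not called. The uncalled members included SLC25A26 for S-adenosylmethionine (-0.08), SLC25A17 of the peroxisome (-0.06), SLC25A32 for folate or FAD (0.08), and SLC25A51 (0.02) and SLC25A52 (-0.11) for NAD. SLC25A32 shares 69.7% of its exon bases with a same-strand gene model in GENCODE 29, so its level is uncertain.

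Both carriers of pyrimidine nucleotides, which supply mitochondrial DNA and RNA synthesis, fell, while 26.4% of protein-coding genes tested were called lower. SLC25A33 stood at 5.82, 6.69 and 6.82 RPM in controls and at 5.11, 5.17 and 5.17 RPM in knockdowns, a log2 fold change of -0.32 (SE 0.10, limma adjusted p = 0.024). Control replicate 1 lay nearest to the knockdowns, which were almost equal, and the call was lost when any single library other than that one was left out (log2 fold changes from -0.39 to -0.28 over the 6 libraries). SLC25A36, the more abundant of the pair, fell by 0.22 on the log2 scale (limma adjusted p = 0.0084), and its share of the pair per length, 87.5% ± 1.2 in controls and 88.3% ± 0.6 in knockdowns, overlapped.

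Of the carriers close to the uncoupling proteins, SLC25A14 stood at 7.69, 8.59 and 8.56 RPM in controls and at 6.99, 6.36 and 6.66 RPM in knockdowns. SLC25A14 fell by 0.31 on the log2 scale (SE 0.09, limma adjusted p = 0.017) without overlap, a call lost on leaving out knockdown replicate 2 or either of control replicates 2 and 3 (log2 fold changes from -0.36 to -0.28 over the 6 libraries left out in turn). SLC25A30 had a log2 fold change of -0.02 and was not called.

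Among the carriers with no settled substrate, SLC25A43 fell by 0.28 and SLC25A46 by 0.19 on the log2 scale. SLC25A46 sits in the outer membrane, where it acts in mitochondrial fission, and its call was lost without control replicate 3 (-0.17) or knockdown replicate 3 (-0.14). SLC25A35 had -0.36 (adjusted p = 0.075) and SLC25A45 -0.18 (adjusted p = 0.43) and neither was called. SLC25A35 was called without control replicate 2 (-0.47) and with libraries thinned to 1 depth (-0.48), but stood at -0.23 without control replicate 1 and at -0.21 with the GC and length trend removed (adjusted p = 0.25 in both). It overlaps RANGRF on the opposite strand over 33.2% of its exon bases. SLC25A53 stood at 3.26, 3.00 and 3.91 RPM in controls and at 4.80, 3.97 and 4.52 RPM in knockdowns. It rose by 0.39 on the log2 scale (SE 0.13, limma adjusted p = 0.035), with the highest control and the lowest knockdown less than 0.1 RPM apart. That call was lost in 6 of 18 other fits, among them those without 1 of control replicates 1 and 2 or of knockdown replicates 1 and 3 (log2 fold changes from 0.31 to 0.50).

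Summed over all carriers, the family took 2167, 2011 and 2160 RPM in controls and 1749, 1806 and 1763 RPM in knockdowns. That was 2113 ± 88.0 RPM against 1773 ± 29.3 RPM (SD, n = 3), or 83.9% of the control level, with no overlap; no test was made of a sum over members. SLC25A3, SLC25A5 and SLC25A6 together made up 48.9% to 50.99% of the family's reads in controls and 45.4% to 46.9% in knockdowns. Their sum was 1061 ± 67.9 RPM in controls and 823 ± 26.9 RPM in knockdowns, 77.5% of control, and the sum of the other carriers was 1051 ± 20.5 RPM and 950 ± 12.2 RPM, 90.4% of control. Per length, the carriers next in level in controls were SLC25A39 at 51.1 ± 1.54 RPKM, SLC25A1 at 44.4 ± 6.42, SLC25A11 at 38.0 ± 1.14 and SLC25A46 at 32.3 ± 0.81 (SD, n = 3). In knockdowns they stood at 44.1 ± 2.39, 31.3 ± 2.86, 28.9 ± 0.07 and 28.4 ± 1.76 RPKM. The order was the same in both groups, but the values of SLC25A1, SLC25A11 and SLC25A46 in knockdowns did not differ beyond their spread.

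Transcript GC content moved with these results. Over all genes tested, the median log2 fold change was 0.06 for transcripts under 40% GC and -0.18 for those of 60% GC or more. All 5 carriers in the upper class, SLC25A1, SLC25A6, SLC25A10, SLC25A22 and SLC25A42, were called lower, with a median of -0.50. Among all genes tested, of any GC content, 23.5% were called lower. The share called lower among the 2144 genes of the upper class was not determined. Whether the calls of these 5 carriers are unusual for genes of that GC content was therefore not tested. Across 40 carriers, Pearson's r between GC content and log2 fold change was -0.40, and across 18546 genes it was -0.18; genes of 1 set of libraries share depth and handling and are not independent. Within the groups, genes of 60% GC or more deviated from the control mean by 0.13, -0.15 and 0.03 in controls and by -0.32, -0.06 and -0.16 in knockdowns (medians, log2), so that control replicate 2 lay below knockdown replicate 2.

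With a trend on GC content and length removed from each library, 16 carriers were called lower, all of them among the 20, and 1 higher, and the median was -0.15 beside -0.00 over all genes, of which 22.4% were called lower. SLC25A4 stayed at a log2 fold change of -1.06, SLC25A22 stood at -0.89, SLC25A5 at -0.45 and SLC25A37 at 0.50. The GC-rich SLC25A6 had -0.16 (limma adjusted p = 0.014), SLC25A1 had -0.26, SLC25A10 -0.60 and SLC25A11 -0.23, each still called. The calls of SLC25A20, SLC25A23, SLC25A28 and SLC25A39 were lost, at -0.11, -0.09, -0.13 and -0.05. SLC25A53 had no GC value and was not part of that fit.

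**Figure D4:**
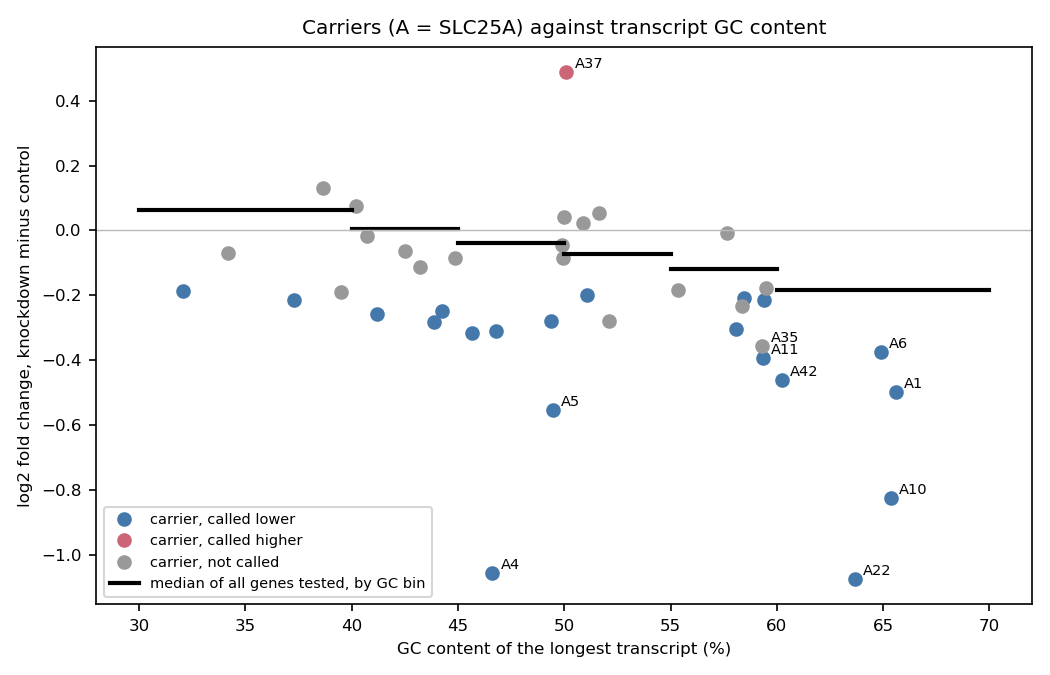
Log2 fold change, knockdown minus control, of 40 carriers (points) against the GC content of the longest transcript in percent; black bars are the medians of all genes tested in 6 GC classes. The class medians go from 0.06 below 40% GC to -0.18 at 60% GC or more, and SLC25A22, SLC25A10, SLC25A1, SLC25A6 and SLC25A42 lie below their class median, as do SLC25A4 and SLC25A5 at lower GC.

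Family members that go by other names had 2 falls and 1 rise in 4 tested genes. MTCH1 and MTCH2, outer membrane proteins with a carrier-like sequence, fell by 0.25 and 0.27 on the log2 scale. UCP3, an uncoupling protein of muscle, rose by 0.87 but from a low level, 0.418 to 0.759 RPM. UCP2 was not called and UCP1 had no reads. Of the 9 genes of the TIM22 import route, which inserts carriers, TIMM10 (-0.29) and TIMM8A (-0.23) fell and 7 were not called, with a median of -0.09. Beside these lists, 26.4% of protein-coding genes tested were called lower and 22.2% higher.

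Other mitochondrial membrane transporters showed 10 falls and 2 rises in 22 genes, with a median of -0.19. Among protein-coding genes tested, 26.4% were called lower and 22.2% higher. LETM1, a cation/proton exchanger of the inner membrane, fell by 0.50, SFXN3, a sideroflexin, by 0.48 and MICU3, a regulator of calcium uptake, by 0.46 on the log2 scale. SFXN1, the mitochondrial serine transporter, rose by 0.26. The pores of the outer membrane, VDAC1, VDAC2 and VDAC3, fell by 0.27, 0.19 and 0.24. Of 28 enzymes that use the carriers' substrates, 16 fell and 3 rose, beside the same 26.4% and 22.2% of protein-coding genes, with a median of -0.17. FECH fell by 0.60, ACLY, which splits the citrate exported by SLC25A1, by 0.56, and CPT1A by 0.55 on the log2 scale. RRM2B, a subunit of ribonucleotide reductase, rose by 0.39. The medians of these transporters and enzymes lay near the -0.21 of the carriers. That of the TIM22 genes was -0.09, beside -0.04 over all genes tested. No test of a difference between lists was made.

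**Figure D5:**
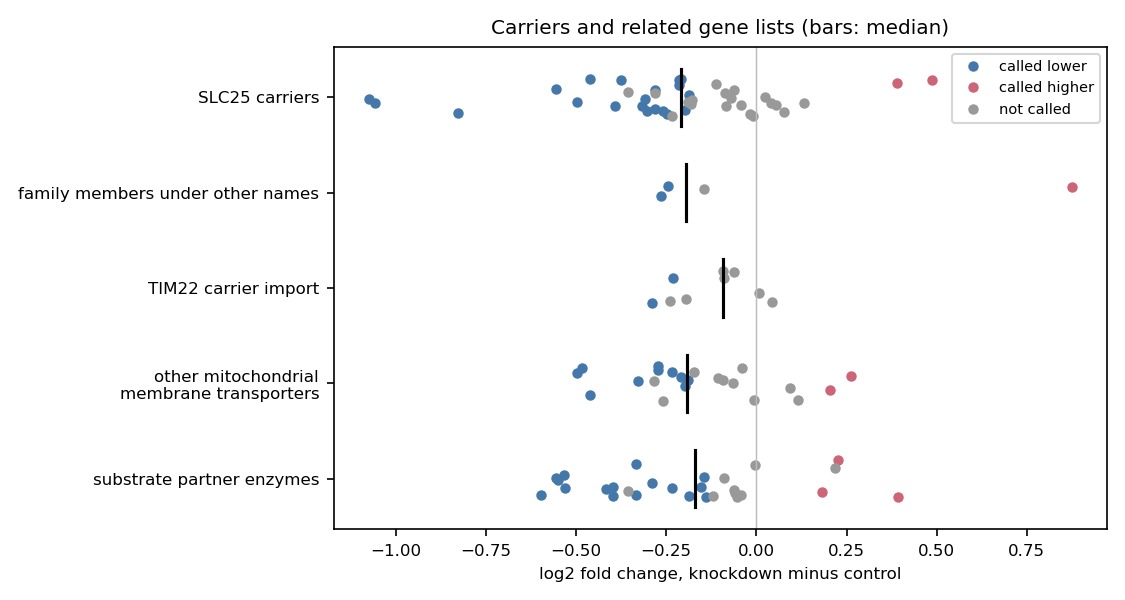
Log2 fold change, knockdown minus control, of the carriers and of 4 related gene lists; points are genes tested, coloured by call, and bars are list medians. The medians are -0.21 for carriers, -0.20 for family members under other names, -0.09 for TIM22 import, -0.19 for other transporters and -0.17 for partner enzymes.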

How the data were processed

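PolyA RNA of 6 libraries, 3 control and 3 knockdown, was read in 1 table that the authors deposited as log2 values. Per the submitters' processing notes, Bowtie2, featureCounts and hg19 were used; their versions, the annotation release and the strand setting are not given in the sources used here. With 0.5 reads subtracted and each library's scale undone, 100% of values were whole reads (tolerance 1e-06 reads), so the deposited log2 values are log2 RPM on an effective library size of 0.989 to 1.009 times the total. RPM here are the recovered reads on that scale. Group and replicate came from the titles, and columns were matched by siRNA name and replicate number.

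limma 3.58.1 (R 4.3.3; lmFit, eBayes with an intensity trend, two-sided) was fitted to the deposited log2 values of 19048 genes with a mean of at least 10 normalized reads, with Benjamini-Hochberg adjustment and a threshold of 0.05; it was tested on simulated data. Fold changes understate those of scarce genes. Described with a value per library were the 14 called carriers with the largest absolute log2 fold change and at least 50 normalized reads on average, and SLC25A1, A3, A4, A5, A6, A11, A12, A13, A20 and A24, together 18; of related lists, called genes with the 3 largest changes, and others that share a step with a carrier, chosen after their values were seen. Members and lists were chosen with earlier results of these data known. GENCODE 29 gave lengths and GC content by gene ID for 47 of 48 carriers, and RefSeq (GRCh38.p14) the promoters; coordinates of genes are those of the table. Alternatives were other scalings, offsets, filters, variance models, depth, a GC and length trend, a replicate block, thresholds, and leaving out each library; summing the 2 SLC25A6 rows was added after the data were seen. Single results of 2 genes are not reported here; counts and medians include them.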

Additional observations from a re-analysis of the deposited data

How the results depend on the processing

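The results were recomputed in 19 other fits and at 2 other thresholds. Of the 20 carriers called lower, 12 kept direction and call in all fits, 8 (SLC25A14, SLC25A16, SLC25A20, SLC25A23, SLC25A28, SLC25A33, SLC25A39 and SLC25A46) lost the call in at least 1, and no called carrier reversed. With an absolute change of 0.5 or more (log2) required as well, 4 carriers were called lower, 0 higher and 4 in all, and 2643 genes of the table; at an adjusted p under 0.01, 1 carrier was called higher and 5195 genes of the table were called. The count of carriers called higher was also 1 without the intensity trend, with voom weights and with the GC and length trend removed, since SLC25A53 was not called or not fitted. The median over carriers was -0.16 with quantile normalization, -0.18 with median-ratio size factors and -0.15 with the GC and length trend removed. The median over all genes moved too, to -0.0076, -0.012 and -0.0006 in that order, from -0.039 in the fit reported. Leaving out 1 library at a time gave 16 to 20 carriers called lower, 1 to 2 higher, 18 to 21 in all, a median of -0.23 to -0.20, and 5803 to 7330 genes called in the table.

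Uncalled carriers near 0 changed sign. SLC25A15 had 0.023 with libraries thinned to 1 depth and 0.049 with the GC and length trend removed. SLC25A18 had 0.0099 with library totals, 0.018 with median-ratio factors, 0.0015 with an offset of 1 read, 0.075 with 5 reads, 0.13 thinned and 0.13 with the trend removed. SLC25A30 had 0.0028 with library totals, 0.020 with quantile normalization and 0.011 with median-ratio factors. Without 1 library, SLC25A18 ranged from -0.13 to 0.11, SLC25A30 from -0.060 to 0.021, SLC25A51 from -0.028 to 0.073 and SLC25A52 from -0.20 to 0.0076. The cause was not tested.

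With the replicate number as a replicate block, 18 carriers were called lower and 2 higher, 20 in all, and 6454 genes of the table. Same-numbered libraries had correlations of deviations of -0.149, -0.183 and 0.0655, so the numbers were not taken as pairs. Depth limits the carriers with few reads: SLC25A18, at 17 to 52 reads, had a standard error of 0.21.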
